A study of Xenopus tropicalis with 10 samples.

Results

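Activin and TGF-beta signalling was followed through tail regeneration in tadpoles of the frog *Xenopus tropicalis* by the RNA levels of 10 genes chosen by symbol: the ligand genes INHBA, INHBB, TGFB1 and TGFB2, the activin-binding protein gene FST, the receptor genes ACVR1B and TGFBR2, and the SMAD genes SMAD2, SMAD3 and SMAD7. Of these 10 symbols, 8 matched a row of the deposited table of 26550 genes, and all 8 passed the filter on low values. SMAD3 and SMAD7 matched no row by the rule and were not analysed here. Tail tissue of stage 40 tadpoles was sequenced as 10 libraries in 6 groups. A first cut gave the whole tail (WT, 2 libraries), and a second cut of the same tadpoles straight afterwards gave the tissue beside the wound (0 hpa, where hpa is hours post amputation, 2 libraries). Regenerating tails were represented by 1 library each at 6 and 15 hpa and by a pair of libraries each at 24 and 72 hpa. The labels name no transgene, drug or mutation for these tadpoles, and intact tadpoles as old as those at 72 hpa were not among the groups. Whether replicates are separate animals or pools is not stated, so the error behind each p-value is the variation from library to library and may be technical.

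Activins and TGF-betas are secreted dimers that assemble pairs of type I and type II serine/threonine kinase receptors on the cell surface. The activated type I receptor phosphorylates SMAD2 and SMAD3, which join SMAD4, enter the nucleus and change transcription, while SMAD7 and other induced proteins damp the signal. Outside the cell, follistatin traps activin and latency proteins hold TGF-beta inactive in the matrix. In frog tadpoles the pathway is known to be needed for tail regrowth after amputation.

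Values are normalised reads, which are the gene reads of a library divided by a size factor, and levels are compared only between libraries for 1 gene, since the transcript lengths behind the table are not known. The libraries held between 15966579 (72 hpa replicate 2) and 128768239 (6 hpa) gene reads. The RNA came from whole tissue, in which fewer cells of a type and less RNA per cell cannot be told apart. Markers of skeletal muscle, notochord, spinal cord and neurons, epidermis, leukocytes, red blood cells, endothelium and connective tissue were read in every library, with only HBG1 and 3 of the KRT5 copies at 0 in some of them. Skeletal muscle markers (14 rows) ranged from 2754 to 16684 RPM (reads-per-million of gene reads) over the 10 libraries. Red blood cell markers (12 rows) ranged from 1164 to 37945, the highest being 0 hpa replicate 2. Tests were two-sided limma tests on log2(value + 1) over 17896 genes with 1 fit to all 10 libraries, and a gene with a Benjamini-Hochberg adjusted p under 0.05 was called. The comparisons with 0 hpa share the 0 hpa libraries, and those with the whole tail share the whole tail libraries.

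Of the ligand genes, INHBA rose after amputation. It encodes the subunit whose homodimer is activin A. INHBA stood at 273 and 191 normalised reads in the whole tail and 174 and 97.1 at 0 hpa, then 830 and 1113 in the 6 and 15 hpa libraries, 1011 and 1908 in the 24 hpa pair, and 834 and 763 in the 72 hpa pair. Each of the 6 libraries from 6 to 72 hpa lay above all 4 whole tail and 0 hpa libraries. INHBA averaged 1459 ± 635 normalised reads at 24 hpa and 136 ± 54.6 at 0 hpa (SD, n = 2 each). On the log2(value + 1) scale it was higher by 3.41 (SE 0.397, limma adjusted p = 0.0214). At 72 hpa the mean was 799 ± 50.2 against the same 0 hpa level, a log2 difference of 2.61 (SE 0.397, limma adjusted p = 0.0175).

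Against the removed whole tail (232 ± 57.6 normalised reads, SD, n = 2), INHBA was also higher, by 2.60 log2 units at 24 hpa (SE 0.397, limma adjusted p = 0.0374) and by 1.80 at 72 hpa (SE 0.397, limma adjusted p = 0.034). The single libraries gave log2 fold changes against 0 hpa of 2.66 at 6 hpa (SE 0.487, limma adjusted p = 0.357) and 3.09 at 15 hpa (SE 0.487, limma adjusted p = 0.0653), neither of which passed. Those values assume that a single library varies like the duplicated groups. At 0 hpa INHBA differed from the whole tail by -0.81 (SE 0.397, limma adjusted p = 0.728), and at 72 hpa it differed from 24 hpa by -0.80 (SE 0.397, limma adjusted p = 0.529). In descending order of mean the groups ran 24, 15, 6 and 72 hpa, the whole tail and 0 hpa. The 24 and 15 hpa values overlapped, as did those at 6 and 72 hpa, while the gap between 72 hpa and the whole tail was clear.

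INHBA was the only member called in a comparison. It made 1 of 8 members called higher at 24 hpa against 0 hpa, where 0.665% of all genes were called higher, and 1 of 8 at 72 hpa against 0 hpa, where the share was 2.87%. Against the whole tail the shares of all genes called higher were 0.793% at 24 hpa and 4.61% at 72 hpa, and INHBA was again the 1 member. No member was called lower in these 4 comparisons, which called 0.302%, 3.53%, 0.313% and 4.68% of all genes lower in the same order. INHBA also passed a limma F test for any difference among the 6 groups (adjusted p = 0.026), which 2.27% of genes passed and no other member did. At 0 hpa against the whole tail, 6 hpa against 0 hpa, 15 hpa against 0 hpa and 72 hpa against 24 hpa, limma called 0 members higher or lower, with 0, 1, 2 and 0 of the 8 at an unadjusted p under 0.05, beside 7.95%, 5.83%, 13.5% and 10.7% of all genes. The shares of all genes called in those comparisons were 0% and 0% (higher and lower) in each of the first 2, 0.229% and 0.134% at 15 hpa, and 0.0391% and 0.0335% at 72 hpa against 24 hpa. On the recovered reads edgeR called 0 members in these 4 comparisons, where it called 0.235% of all genes higher and 0.0671% lower at 15 hpa, 0.00559% each way at 72 hpa against 24 hpa and 0% in the other two. DESeq2 called INHBA at 6 hpa (0.618% of all genes higher) and at 15 hpa (2.33%).

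The INHBA calls were close to the threshold. Without a single library each in turn, the adjusted p for 24 hpa against 0 hpa ran from 0.0317 to 0.116, and the call ended without either 0 hpa library or either 24 hpa library. The call at 72 hpa against 0 hpa ended without 0 hpa replicate 2 or either 72 hpa library (0.0149 to 0.0743 over these fits), that at 24 hpa against the whole tail ended without any 1 of the 8 replicates (0.0553 to 0.177), and that at 72 hpa against the whole tail without either whole tail or either 72 hpa library (0.03 to 0.128). The log2 fold change at 24 hpa against 0 hpa stayed between 2.95 and 3.86 in these fits. Leukocyte markers (8 rows, none at 0 in a library) were also higher in each library from 6 hpa on than in the whole tail and 0 hpa libraries. They stood at 101 and 94.3 RPM in the whole tail and 154 and 174 at 0 hpa, then 373 and 737 in the 6 and 15 hpa libraries, 292 and 369 in the 24 hpa pair, and 531 and 391 in the 72 hpa pair. Unlike INHBA, the leukocyte markers were higher at 0 hpa than in the whole tail and were not highest at 24 hpa. Their part in the INHBA values was not tested. In the authors' deposited table INHBA carries the flag of change and is in a cluster of 487 genes, and TGFBR2 is the only other member with the flag, which 19.2% of all genes carry.

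**Figure D1:**
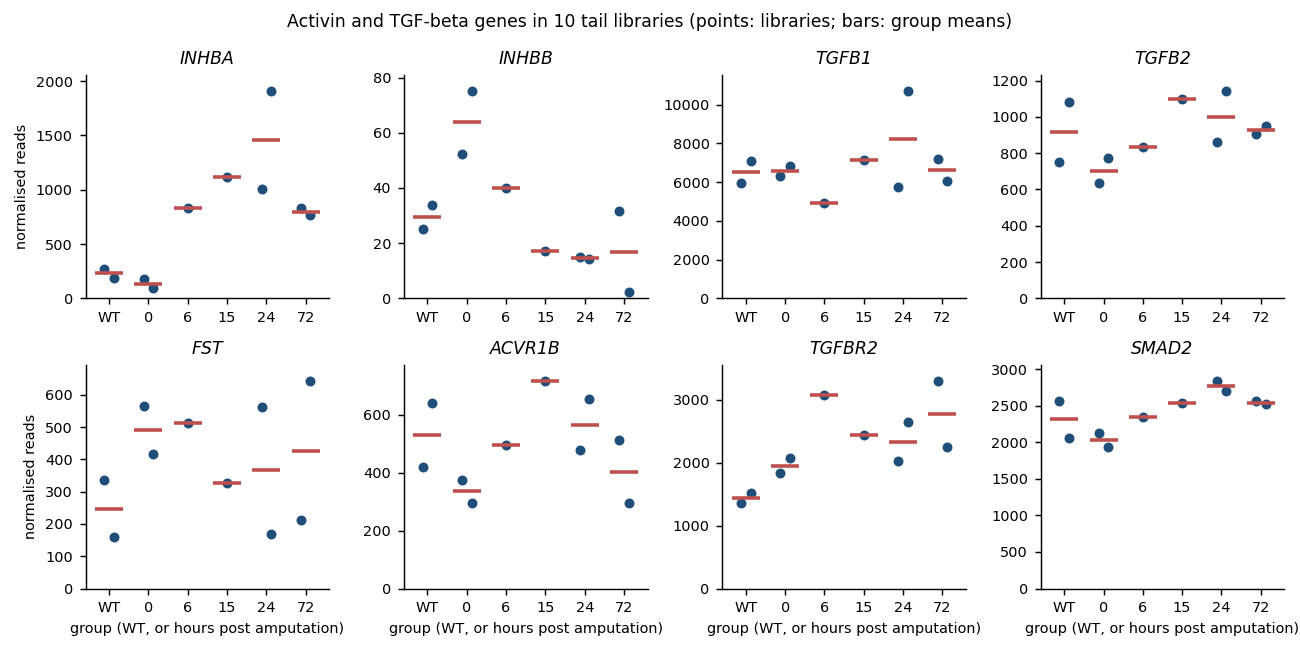
Normalised reads (y axes, each from 0) of the 8 measured activin and TGF-beta genes by group (x axes, the whole tail as WT, then hours post amputation); points are libraries and horizontal bars are group means. INHBA lies at 763 or more in every library from 6 hpa on and at 273 or less in the whole tail and at 0 hpa, whereas the replicates of FST are far apart in most groups.

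INHBB, which encodes the subunit of activin B, had few reads and no passing change. It stood at 25 and 33.9 normalised reads in the whole tail and 52.5 and 75.1 at 0 hpa, then 40.1 and 17.3 in the 6 and 15 hpa libraries, 15.0 and 14.4 in the 24 hpa pair, and 31.5 and 2.43 in the 72 hpa pair. Both 0 hpa libraries were the highest of the 10, and the 15 and 24 hpa libraries lay below both whole tail libraries. The log2 fold change was -2.02 at 24 hpa (95% confidence interval -4.27 to 0.23, limma adjusted p = 0.348) and -2.59 at 72 hpa against 0 hpa (-4.85 to -0.34, limma adjusted p = 0.155). The value of 72 hpa replicate 2 rests on 1 read, with an exact Poisson 95% interval of 0.0615 to 13.5 normalised reads that covers counting error only, while replicate 1 held 51 reads. Without 72 hpa replicate 1 the fold change at 72 hpa was -4.22 and was called (limma adjusted p = 0.0279, within 0.0279 to 0.416 over all alternatives).

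INHBA was higher relative to INHBB in each regenerating library than in any whole tail or 0 hpa library. Within a library the log2 ratio of INHBA to INHBB was 3.39 and 2.46 in the whole tail and 1.71 and 0.37 at 0 hpa, then 4.34 and 5.93 in the 6 and 15 hpa libraries, 5.98 and 6.95 in the 24 hpa pair, and 4.68 and 7.80 in the 72 hpa pair. The ratio was taken on log2(value + 1), and its size also depends on transcript lengths. Its differences between libraries depend little on lengths or on the scaling of the libraries, except where INHBB is low and the added 1 weighs more. The highest ratio, 7.80 in 72 hpa replicate 2, rests on 1 INHBB read.

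The TGF-beta ligand genes showed no called change in any comparison. TGFB1, whose product acts on immune cells, matrix and epithelia, stood at 5947 and 7110 normalised reads in the whole tail and 6346 and 6824 at 0 hpa, then 4908 and 7128 in the 6 and 15 hpa libraries, 5756 and 10706 in the 24 hpa pair, and 7221 and 6088 in the 72 hpa pair. The 6 hpa library was the lowest and 24 hpa replicate 2 the highest, and the other 8 lay close together. At 24 hpa against 0 hpa the log2 fold change was 0.25 (95% confidence interval -0.42 to 0.93, limma adjusted p = 0.706), and without 24 hpa replicate 2 it turned to -0.19. At 72 hpa it was 0.01 (-0.66 to 0.68, limma adjusted p = 0.988).

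TGFB2, a ligand known for its roles in epithelial and neural crest development in mammals, stood at 749 and 1084 normalised reads in the whole tail and 633 and 773 at 0 hpa, then 833 and 1098 in the 6 and 15 hpa libraries, 862 and 1142 in the 24 hpa pair, and 903 and 948 in the 72 hpa pair. Every library from 6 hpa on was above both 0 hpa libraries, but the whole tail values spanned most of that range. The log2 fold change at 24 hpa was 0.50 against 0 hpa (95% confidence interval -0.09 to 1.09, limma adjusted p = 0.369) and 0.14 against the whole tail (-0.45 to 0.73, limma adjusted p = 0.826).

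FST encodes follistatin, a secreted protein that binds activin with high affinity and blocks it. Its values were 336 and 159 normalised reads in the whole tail and 566 and 416 at 0 hpa, then 514 and 327 in the 6 and 15 hpa libraries, 563 and 168 in the 24 hpa pair, and 212 and 642 in the 72 hpa pair. Replicates differed by 3.35 times at 24 hpa and 3.03 times at 72 hpa, and neighbouring groups overlapped at every step in the order of means. The log2 fold change at 24 hpa against 0 hpa was -0.65 (95% confidence interval -2.30 to 1.00, limma adjusted p = 0.69), and without 24 hpa replicate 2 it turned to 0.22. At 0 hpa against the whole tail it was 1.07 (-0.58 to 2.72, limma adjusted p = 0.831).

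Within each pair of replicates, FST had the same order as the muscle marker reads. Skeletal muscle markers (14 rows for 12 symbols, none at 0 in a library) took 15379 and 2754 RPM in the whole tail and 7015 and 6808 at 0 hpa, then 11916 and 9954 in the 6 and 15 hpa libraries, 12008 and 4500 in the 24 hpa pair, and 3510 and 16684 in the 72 hpa pair. In all 4 duplicated groups the library with more muscle marker reads also had the higher FST value. The same held for 8.64% of all genes tested. Between groups the order was not kept. Whole tail replicate 1, at 15379 RPM, had a lower FST value (336) than both 0 hpa libraries (566 and 416). TGFB1 and TGFBR2 showed the opposite order in all 4 groups, as did 9.82% of genes tested (ties included). All members were likewise set against leukocyte and connective tissue markers. FST kept the order of those in 1 and 2 of the 4 groups, in that order. The muscle match of FST was singled out from all these looks. The part of muscle RNA in the values of FST, TGFB1 and TGFBR2 was not tested.

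**Figure D2:**
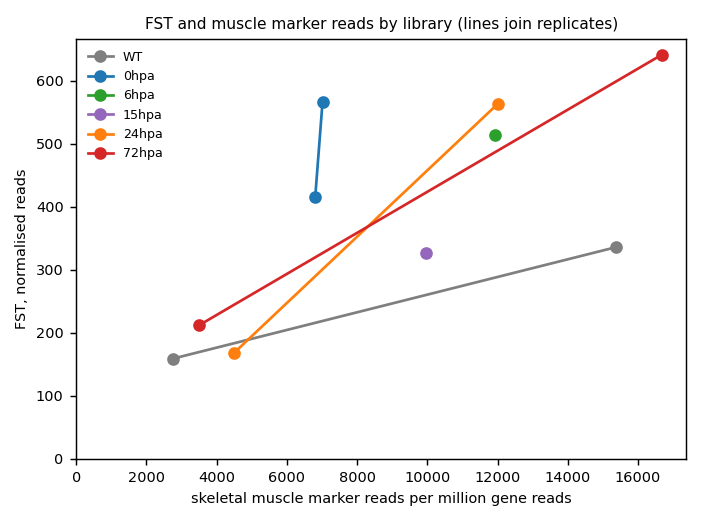
FST (y axis, normalised reads) against the summed reads of skeletal muscle markers (x axis, RPM) in the 10 libraries; colours are groups and lines join the replicates of a group. Each line slopes upward, and the replicates at 24 hpa (563 and 168) and 72 hpa (212 and 642) are the farthest apart.

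INHBA was higher relative to FST, the only activin-binding gene among the members, in every regenerating library than at 0 hpa. The log2 ratio of INHBA to FST within a library was -0.30 and 0.27 in the whole tail and -1.69 and -2.09 at 0 hpa, then 0.69 and 1.77 in the 6 and 15 hpa libraries, 0.84 and 3.50 in the 24 hpa pair, and 1.97 and 0.25 in the 72 hpa pair. Against the whole tail the separation was not complete, since 72 hpa replicate 2 (0.25) fell just under whole tail replicate 2 (0.27). That library had the highest FST value of the 10. The ratio to FSTL3, another gene for an activin-binding protein, was not taken, and its values are given under the other observations.

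**Figure D3:**
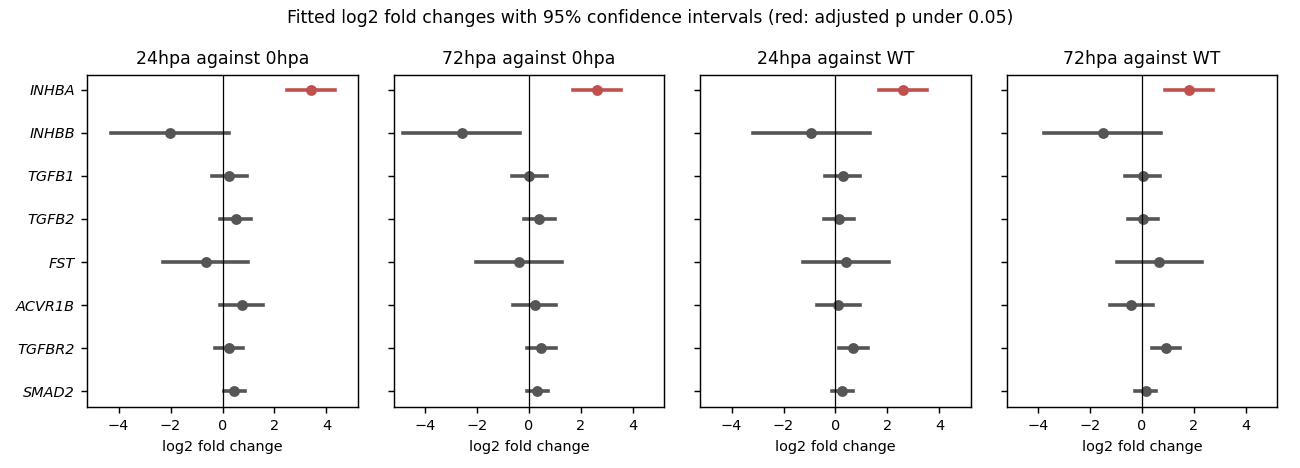
Fitted log2 fold changes (x axis, log2(value + 1) scale) with 95% confidence intervals for the 8 genes in 4 comparisons; red marks a limma adjusted p under 0.05. INHBA is red in all 4 panels (3.41, 2.61, 2.60 and 1.80), the intervals of INHBB and FST are the widest, and TGFBR2 at 72 hpa against the whole tail (0.93) is the nearest to a call among the rest.

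Among the receptor genes, TGFBR2, the type II receptor that binds TGF-beta, was lowest in the whole tail. It stood at 1355 and 1514 normalised reads in the whole tail and 1834 and 2078 at 0 hpa, then 3072 and 2437 in the 6 and 15 hpa libraries, 2023 and 2655 in the 24 hpa pair, and 3296 and 2248 in the 72 hpa pair. Both whole tail libraries were below the other 8, and the groups from 0 to 72 hpa overlapped one after the other in the order of means. TGFBR2 averaged 2772 ± 741 at 72 hpa and 1435 ± 113 in the whole tail (SD, n = 2 each), a log2 fold change of 0.93 (95% confidence interval 0.37 to 1.48) that just missed the threshold (limma adjusted p = 0.0523). With a pseudocount of 8 it passed (limma adjusted p = 0.0491, with 5.05% of all genes called higher), as it did with DESeq2 on the recovered reads (adjusted p = 0.00986, with 8.67% called higher). Over all alternatives its adjusted p ran from 0.00986 to 0.202. At 24 hpa against the whole tail the log2 fold change was 0.69 (0.14 to 1.25, limma adjusted p = 0.198), and at 0 hpa against the whole tail 0.45 (-0.11 to 1.00, limma adjusted p = 0.777).

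ACVR1B, the type I receptor that carries activin and nodal signals, stood at 421 and 642 normalised reads in the whole tail and 375 and 297 at 0 hpa, then 495 and 716 in the 6 and 15 hpa libraries, 477 and 653 in the 24 hpa pair, and 512 and 297 in the 72 hpa pair. The 15 hpa library was the highest, and 0 hpa and 72 hpa held the lowest values. Its log2 fold change was 1.10 at 15 hpa against 0 hpa (95% confidence interval 0.09 to 2.11, limma adjusted p = 0.331) and 0.10 at 24 hpa against the whole tail (-0.72 to 0.93, limma adjusted p = 0.916).

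SMAD2, the receptor-activated SMAD of this branch, had the narrowest range of the 8 genes as a ratio of the highest to the lowest library. It stood at 2566 and 2065 normalised reads in the whole tail and 2130 and 1929 at 0 hpa, then 2346 and 2537 in the 6 and 15 hpa libraries, 2833 and 2694 in the 24 hpa pair, and 2565 and 2520 in the 72 hpa pair. All 6 libraries from 6 hpa on were above both 0 hpa libraries, with the 24 hpa pair at the top. The log2 fold change at 24 hpa against 0 hpa was 0.45 (95% confidence interval 0.04 to 0.85, limma adjusted p = 0.259), and at 72 hpa against the whole tail it was 0.14 (-0.26 to 0.55, limma adjusted p = 0.643).

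The wider pathway was read from a list of 95 symbols in 6 roles, of which 78 had a row and 72 genes were tested, the members included. Another 14 rows had too few reads to be tested, most of them ligand genes such as the NODAL copies. At 24 hpa against 0 hpa, 3 of the 72 were called and all 3 were higher (4.17%, beside 0.665% of all genes), while 0.302% of all genes were called lower. In the lower direction limma and edgeR called 0, 13 stood at an unadjusted p under 0.05 (as did 8.28% of all genes) and DESeq2 called 5 (3.55% of all genes). In that direction edgeR called 0.235% of all genes. At 72 hpa against 0 hpa, 4 were called higher (5.56%, beside 2.87%) and 3 lower (4.17%, beside 3.53%).

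Against the whole tail, limma called 2 at 24 hpa, both higher (2.78%, beside 0.793% of all genes). Lower, it called 0 of the 72 (0.313% of all genes), with 7 at an unadjusted p under 0.05 (beside 8.73% of all genes). In that direction edgeR called 1 (LEFTY, beside 0.335% of all genes) and DESeq2 called 4 (beside 3.56%). At 72 hpa, 6 were called higher (8.33%, beside 4.61%) and 1 lower (1.39%, beside 4.68%). The median log2 fold change of the 72 was 0.06 at 24 hpa and 0.16 at 72 hpa against 0 hpa, beside -0.01 and 0.02 over all genes tested. The F test called INHBA, LEFTY, LTBP3 and PMEPA1, which is 4 of the 72, beside 2.27% of all genes.

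Of the 16 tested genes for ligand binding and latency, LTBP3 was called higher in all 4 comparisons. These called 0.665%, 2.87%, 0.793% and 4.61% of all genes higher (24 and 72 hpa against 0 hpa, then against the whole tail). THBS1 was called higher only in the last. Limma called 1 of the 16, LEFTY, lower at 72 hpa in both comparisons, beside 3.53% and 4.68% of all genes. LTBP3 encodes a matrix protein that binds latent TGF-beta and helps its secretion. LTBP3 stood at 1233 and 1361 normalised reads in the whole tail and 1061 and 1654 at 0 hpa, then 1554 and 3768 in the 6 and 15 hpa libraries, 3572 and 4204 in the 24 hpa pair, and 4017 and 4005 in the 72 hpa pair. The 5 libraries from 15 hpa on lay above the other 5, with the 6 hpa library among the whole tail and 0 hpa values. Its log2 fold change was 1.55 at 24 hpa (SE 0.233, limma adjusted p = 0.0374) and 1.60 at 72 hpa against 0 hpa (SE 0.233, limma adjusted p = 0.016). Against the whole tail it was 1.58 at 24 hpa (limma adjusted p = 0.033) and 1.63 at 72 hpa (limma adjusted p = 0.00949).

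The LTBP3 call at 24 hpa against 0 hpa ended without any 1 of the 8 replicates (limma adjusted p 0.057 to 0.209), and that against the whole tail without either whole tail, 24 hpa or 72 hpa library (0.0366 to 0.187). The calls at 72 hpa ended without 72 hpa replicate 2 in both comparisons, without 0 hpa replicate 1 in the comparison with 0 hpa (0.0215 to 0.0714), and without whole tail replicate 1 in that with the whole tail (0.0123 to 0.0646).

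LEFTY, a secreted antagonist of nodal signals, had lower values in each library from 6 hpa on, and limma called it lower at 72 hpa. It stood at 288 and 248 normalised reads in the whole tail and 101 and 87.9 at 0 hpa, then 22.7 and 15.5 in the 6 and 15 hpa libraries, 30.1 and 16.8 in the 24 hpa pair, and 11.8 and 2.43 in the 72 hpa pair. The whole tail libraries were the highest, the 0 hpa libraries came next, and every later library was below both groups. At 72 hpa it was lower by 5.34 on the log2 scale than in the whole tail (SE 0.672, limma adjusted p = 0.0069). Against 0 hpa it fell by 3.85 (SE 0.672, limma adjusted p = 0.0247). Limma did not call LEFTY against 0 hpa at the earlier times. The log2 fold changes were -2.01 and -2.53 in the single 6 and 15 hpa libraries and -2.02 at 24 hpa (SE 0.672, limma adjusted p = 0.207). DESeq2 called it at 15 and 24 hpa. Straight after the first cut, the 0 hpa tissue differed from the whole tail by -1.49 (SE 0.672, limma adjusted p = 0.666). Tissue region and time therefore cannot be told apart in the comparison with the whole tail.

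The LEFTY value of 72 hpa replicate 2 rests on 1 read (exact Poisson 95% interval 0.0615 to 13.5 normalised reads), so the size of its fall there is uncertain. The call against the whole tail ended without whole tail replicate 1 (0.00708 to 0.0528 over the leave-one-out fits), and that against 0 hpa ended without either 0 hpa library or 72 hpa replicate 2 (0.0187 to 0.131). At 24 hpa the log2 fold change against the whole tail was -3.51 (SE 0.672, limma adjusted p = 0.0612). It was called there by edgeR, by DESeq2, with a pseudocount of 8 and without either 72 hpa library.

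THBS1, whose product thrombospondin 1 can activate latent TGF-beta, was higher at 72 hpa than in the whole tail. It stood at 16125 and 15995 normalised reads in the whole tail and 25381 and 24278 at 0 hpa, then 26202 and 21047 in the 6 and 15 hpa libraries, 20717 and 24707 in the 24 hpa pair, and 29619 and 37804 in the 72 hpa pair. Both whole tail libraries were the lowest and both 72 hpa libraries the highest. The log2 fold change at 72 hpa against the whole tail was 1.06 (SE 0.199, limma adjusted p = 0.0214), and the call ended without either whole tail library or 72 hpa replicate 2 (0.0264 to 0.103).

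No receptor or SMAD gene passed the limma test in any of these 4 comparisons, in which 16.8%, 24.1%, 17.6% and 27.4% of all genes had an unadjusted p under 0.05 (24 and 72 hpa against 0 hpa, then against the whole tail). Of 11 receptor and co-receptor genes, limma and edgeR called 0 in each, with 3, 0, 2 and 3 at an unadjusted p under 0.05 in that order, and DESeq2 called 3 at 72 hpa against the whole tail (TGFBR2 higher, ACVR2B and TDGF1.2 lower, beside 8.67% and 9.22% of all genes). Of 9 SMAD and partner genes, limma and edgeR called 0, with 4, 2, 0 and 1 at an unadjusted p under 0.05 in that order. DESeq2 called SMAD4.2 at 24 and 72 hpa and ZFYVE9 at 72 hpa, each higher against 0 hpa, beside 3.16% of all genes at 24 hpa and 5.63% at 72 hpa. The other SMAD4 row, SMAD4.1, was not called against 0 hpa (log2 fold change 0.30 at 24 hpa, limma adjusted p = 0.427, and 0.14 at 72 hpa, limma adjusted p = 0.667). Against the whole tail SMAD4.2 differed by -1.01 at 0 hpa (limma adjusted p = 0.509) and by 0.16 at 72 hpa (limma adjusted p = 0.801).

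Of the 10 negative feedback genes, PMEPA1 was called higher at 24 and 72 hpa against 0 hpa, and NEDD4L at 72 hpa against the whole tail. Each was 1 of 10, beside 0.665%, 2.87% and 4.61% of all genes called higher in these comparisons. Limma, edgeR and DESeq2 called 0 of the 10 lower there, where limma called 0.302%, 3.53% and 4.68% of all genes lower. PMEPA1 encodes a membrane protein that is induced by TGF-beta in mammalian cells and keeps SMAD2 and SMAD3 from the receptor. It stood at 676 and 513 normalised reads in the whole tail and 401 and 311 at 0 hpa, then 1773 and 1185 in the 6 and 15 hpa libraries, 1228 and 1028 in the 24 hpa pair, and 801 and 863 in the 72 hpa pair. As with INHBA, all 6 libraries from 6 hpa on were above all 4 whole tail and 0 hpa libraries, but the highest was at 6 hpa.

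PMEPA1 was higher by 1.67 log2 units at 24 hpa (SE 0.235, limma adjusted p = 0.0309) and by 1.23 at 72 hpa against 0 hpa (SE 0.235, limma adjusted p = 0.0294). At 6 hpa the value was 2.32 (SE 0.287, limma adjusted p = 0.123), which did not pass, although DESeq2 and limma with no filter on low values called it. The 24 hpa call ended without either 0 hpa, 24 hpa or 72 hpa library (0.0407 to 0.161) and the 72 hpa call without either 0 hpa or 72 hpa library (0.0391 to 0.114).

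NEDD4L encodes a ubiquitin ligase that marks activated SMAD2 and SMAD3 for degradation in mammals. It stood at 2331 and 2483 normalised reads in the whole tail and 2801 and 2673 at 0 hpa, then 4526 and 3178 in the 6 and 15 hpa libraries, 3281 and 2476 in the 24 hpa pair, and 4333 and 3962 in the 72 hpa pair. The 6 and 72 hpa libraries were the highest, and 24 hpa replicate 2 lay within the whole tail range. Its log2 fold change at 72 hpa against the whole tail was 0.78 (SE 0.185, limma adjusted p = 0.0402), and of the leave-one-out fits those without a 24 hpa library kept the call while the other 6, without a whole tail, 0 hpa or 72 hpa library, ended it (0.0454 to 0.163). It was called by edgeR and DESeq2 as well.

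**Figure D4:**
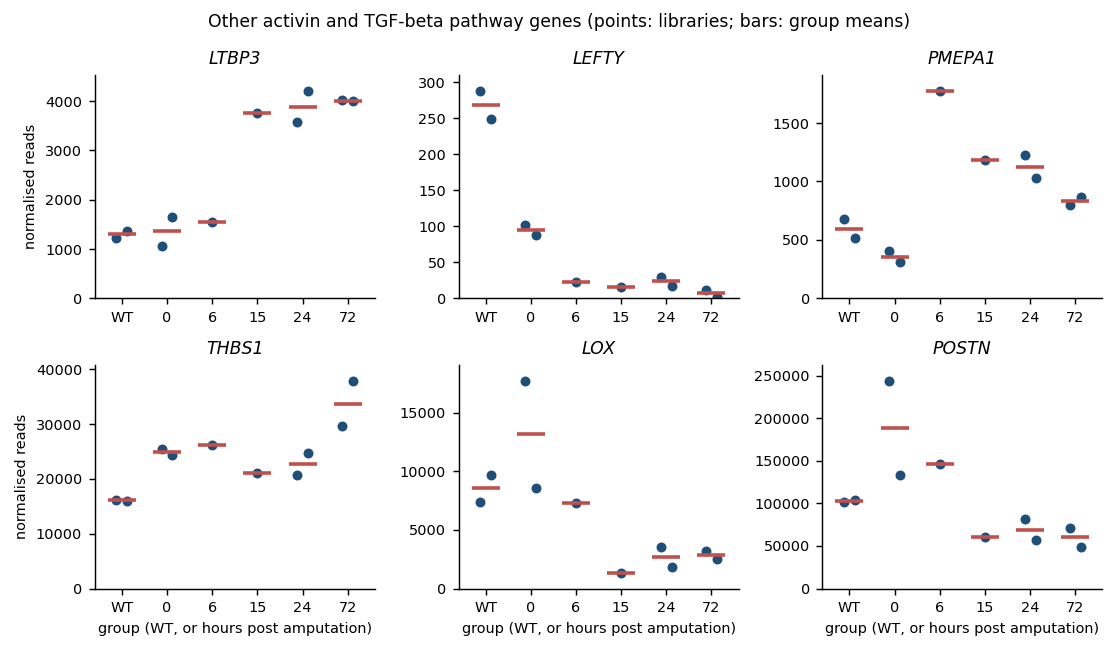
Normalised reads (y axes, each from 0) of LTBP3, LEFTY, PMEPA1, THBS1, LOX and POSTN by group (x axes, the whole tail as WT, then hours post amputation); points are libraries and bars are group means. LTBP3 is at 3572 or more in every library from 15 hpa on, LEFTY is at 30.1 or less from 6 hpa on, PMEPA1 is highest at 6 hpa, and LOX and POSTN are highest in 0 hpa replicate 1.

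The 17 tested textbook target genes leaned lower at 24 hpa against 0 hpa, and those called at 72 hpa went in both directions. At 24 hpa limma and edgeR called 0 of them against 0 hpa, with 0 higher and 8 lower at an unadjusted p under 0.05 (beside 8.49% and 8.28% of all genes), and DESeq2 called 4, all lower (beside 3.55% of all genes). Their median log2 fold change was -0.65, beside -0.01 over all genes tested. Against the whole tail their median was 0.54 at 0 hpa and -0.46 at 24 hpa, beside -0.0012 and -0.0038 over all genes tested. At 72 hpa against 0 hpa LOX and POSTN were called lower (11.8%, beside 3.53% of all genes) and VIM.2 higher (5.88%, beside 2.87%). TAGLN and BHLHE40 were called higher at 72 hpa against the whole tail (11.8%, beside 4.61%) but not against 0 hpa. Lower than the whole tail, limma and edgeR called 0 at 72 hpa (4.68% of all genes by limma). In that direction 3 stood at an unadjusted p under 0.05 (beside 14.3%), and DESeq2 called 2 (beside 9.22%).

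LOX encodes an enzyme that crosslinks collagen and elastin. It stood at 7408 and 9715 normalised reads in the whole tail and 17682 and 8607 at 0 hpa, then 7305 and 1340 in the 6 and 15 hpa libraries, 3510 and 1828 in the 24 hpa pair, and 3184 and 2501 in the 72 hpa pair. The 5 libraries from 15 hpa on were below the other 5. Its log2 fold change at 72 hpa was -2.13 against 0 hpa (SE 0.411, limma adjusted p = 0.0304) and -1.59 against the whole tail (SE 0.411, limma adjusted p = 0.0534), where DESeq2 called it. The call against 0 hpa ended without either 0 hpa or 72 hpa library (0.0259 to 0.156).

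POSTN encodes periostin, a matrix protein of connective tissue. It stood at 101303 and 104215 normalised reads in the whole tail and 243327 and 133636 at 0 hpa, then 146273 and 60257 in the 6 and 15 hpa libraries, 81301 and 56725 in the 24 hpa pair, and 71609 and 48497 in the 72 hpa pair. Like LOX, it was lower in every library from 15 hpa on than in any earlier one. At 72 hpa the log2 fold change was -1.61 against 0 hpa (SE 0.365, limma adjusted p = 0.0442) and -0.80 against the whole tail (SE 0.365, limma adjusted p = 0.205), and the call ended without any 1 of the 8 replicates (0.0612 to 0.212) and with total count scaling.

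Summed connective tissue markers (6 rows, none at 0 in a library) took 6153 and 7305 RPM in the whole tail and 12489 and 8563 at 0 hpa. They took 8196 and 5993 in the 6 and 15 hpa libraries, 6474 and 6447 at 24 hpa, and 9040 and 6642 at 72 hpa. COL1A2 and COL3A1 are in both this marker list and the target gene list, so the 2 lists are not independent. The highest marker sum was in the same 0 hpa replicate 1 that was highest for LOX and POSTN. Unlike LOX and POSTN, the markers overlapped between the whole tail and 72 hpa. Their part in those values was not tested. VIM.2, a numbered copy of the vimentin gene whose reads could be shared with another copy, stood at 867 and 977 normalised reads at 72 hpa, against 75.0 and 209 at 0 hpa, a log2 difference of 2.87 (SE 0.648, limma adjusted p = 0.0442). The other vimentin row tested, VIM, was not called at 72 hpa against 0 hpa (log2 fold change -0.007, 95% confidence interval -0.90 to 0.89, limma adjusted p = 0.994). For VIM.2 the whole tail held 501 and 1876, so its 72 hpa values lay within the whole tail range (log2 fold change -0.08, limma adjusted p = 0.957). The VIM.2 call against 0 hpa ended with edgeR (adjusted p = 0.0638) and held with DESeq2 (adjusted p = 0.000231). It held in only 2 of the 8 leave-one-out fits, those without whole tail replicate 1 or 2.

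TAGLN and BHLHE40 fell outside the rule of 3 genes per role and were chosen after their values were seen. TAGLN, which encodes the actin-binding protein transgelin, stood at 189 and 134 normalised reads at 72 hpa, against 5.57 and 32.6 in the whole tail, a log2 difference of 3.43 (SE 0.791, limma adjusted p = 0.038). At 0 hpa it stood at 48.7 and 29.3. Its log2 fold change at 72 hpa against 0 hpa was 2.04, which limma did not call (adjusted p = 0.168) and DESeq2 did. BHLHE40, a transcriptional repressor gene, stood at 4660 and 8013 at 72 hpa, against 1906 and 3165 in the whole tail, a log2 difference of 1.31 (SE 0.316, limma adjusted p = 0.0428). At 0 hpa it already stood at 4117 and 4743, which overlaps the 72 hpa range. Its log2 fold change at 72 hpa against 0 hpa was 0.47 (limma adjusted p = 0.412). The whole tail and 72 hpa values did not overlap in either gene. Against the whole tail DESeq2 called both (adjusted p = 0.000632 for TAGLN and 0.00281 for BHLHE40), but edgeR called neither (adjusted p = 0.0541 and 0.0508). Most leave-one-out fits ended the calls against the whole tail. That of TAGLN ended without whole tail replicate 1 or either 0 hpa or 72 hpa library (limma adjusted p 0.0249 to 0.14), and that of BHLHE40 without whole tail replicate 1, either 0 hpa or 24 hpa library, or 72 hpa replicate 2 (0.0283 to 0.195).

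Among 10097 genes with a symbol and a mean of at least 100 normalised reads, the genes whose log2 values ran most like INHBA over the 10 libraries were CEP350 (Pearson r = 0.972), FNTB (0.967), ZNF142 (0.967), CECR2 (0.959) and NPR2-LIKE (0.958). CEP350, a centrosomal protein gene, had its group means in the same order as INHBA, over a much narrower range, at 2268 and 2323 normalised reads in the whole tail, 2265 and 2122 at 0 hpa and 2663 and 3176 at 24 hpa. For TGFBR2, the member with the second smallest p in the F test, they were ITGA2 (0.959), ITGA3 (0.956), EPS15 (0.949), FLNA (0.944) and ARHGAP12-LIKE (0.926). ITGA2 and ITGA3 encode integrin alpha subunits, which bind matrix proteins, and FLNA encodes filamin A, an actin crosslinker. These are descriptions over 10 libraries, in which all genes share the depth and tissue makeup of a library, and none of the 10 genes was in the pathway list.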

How the data were processed

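RNA from tail tissue was sequenced as 10 libraries in 6 groups. Tools listed in the submitters' processing notes are R 3.2.0, DESeq2, HTSeq, SAMtools 1.1, TopHat2 2.0.13 and Trim Galore 0.3.3, without roles. No coordinates are printed, since genome build and annotation were "not given in the sources used here". The deposited values are a normalised signal per gene: dividing by the smallest step of a library recovered whole reads for 100% of values (tolerance 0.01), and median-of-ratios size factors from these reads gave the deposited signal to within a relative deviation of 1.6e-09. Every row has a gene name.

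The main test was limma 3.58.1 (R 4.3.3) with a variance trend on log2(value + 1), for the 17896 genes that reached 10 normalised reads in 2 or more libraries. All libraries entered 1 fit with 4 residual degrees of freedom, 8 comparisons and an F test, with Benjamini-Hochberg adjustment over all genes tested and a threshold of 0.05. Fold changes on this scale understate those of low genes. On the recovered reads, edgeR 4.0.16 (quasi-likelihood) called 83 genes higher and 42 lower at 24 hpa against 0 hpa, where limma called 119 and 54. DESeq2 1.42.0, other scalings, filters and pseudocounts, and leaving out each replicate were further alternatives. The fit was also run on simulated data, with changes in the 24 hpa group only. That run drew each gene at the spread typical of its level, so it does not measure how stable the calls are. Poisson intervals and the floor of 3 reads (0.852 to 7.29 normalised reads by library) cover counting error only.

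Members and list genes were matched to rows by symbol in either case, numbered copies included. All members are named, and other pathway genes where called, at most the 3 with the smallest p per role. The members, lists and rules were chosen with earlier results of these data known. Replicate numbers did not mark shared variation in every pair of groups (correlation of same-numbered deviations between -0.135 and 0.271 over 6 pairs). The highest, 0.271, was that of 0 and 24 hpa. They were therefore not used as a block in the main fit. The whole tail and 0 hpa libraries came from the same tadpoles, but the main fit treated them as independent (correlation -0.00898).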

Additional observations from a re-analysis of the deposited data

How the results depend on the processing

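With 2 libraries in a group at most and 1 at 6 and 15 hpa, calls can turn on single libraries, and genes near the floor, such as INHBB and LEFTY at 72 hpa, are limited by depth. Over the 35 gene results, 662 alternatives gave 531 with the same direction and side of the threshold, 123 with the direction kept but the call lost, 6 with a call gained and 2 reversals. Only 19 of the 35 results were called in the main fit, and only these could lose a call. The 531 therefore overstates how stable the calls were. The reversals were FST (0.22) and TGFB1 (-0.19) at 24 hpa against 0 hpa, both without 24 hpa replicate 2, neither called; the cause was not tested. Without each replicate in turn FST ran from -1.52 to 0.22 and TGFB1 from -0.19 to 0.70. Total count scaling moved the median of all genes by -0.125 (log2) in 0 hpa replicate 1, the largest shift of that scaling, and no gene result changed direction under it.

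Counts of members called moved as follows. DESeq2 called 1 at 6 hpa and 1 at 15 hpa against 0 hpa, and 2 at 72 hpa against the whole tail. Total count scaling called 1 at 15 hpa against 0 hpa, and a pseudocount of 8 called 2 at 72 hpa against the whole tail. With no filter on low values, which tests more genes, 0 members were called at 24 and 72 hpa against 0 hpa or the whole tail, or by the F test. With no variance trend 0 were called at 24 hpa against 0 hpa, at 24 and 72 hpa against the whole tail, and by the F test. Leaving out each replicate gave 0 to 1 at 24 hpa and 0 to 1 at 72 hpa against 0 hpa, 0 to 0 at 24 hpa and 0 to 1 at 72 hpa against the whole tail, and 0 to 1 by the F test. Without 72 hpa replicate 1 the 1 member called against either group was INHBB.

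Counts over the 72 pathway genes moved more. DESeq2 called 2 at 0 hpa against the whole tail, and 3, 9, 11 and 14 at 6, 15, 24 and 72 hpa against 0 hpa. It called 1 at 72 hpa against 24 hpa, and 8 and 14 at 24 and 72 hpa against the whole tail. For any difference among the 6 groups its test was a likelihood ratio test, not an F test, and called 21 (share of all genes not counted). DESeq2 gave some of the 17896 genes no adjusted p, and its shares of all genes are over the rest. These were 16508 genes at 6 and 24 hpa and 17549 at 15 hpa against 0 hpa. Against the whole tail they were 17202 at 24 hpa and 17549 at 72 hpa. At 72 hpa against 0 hpa all 17896 had one. Over all genes, DESeq2 called 197 higher and 129 lower at 0 hpa against the whole tail. At 6, 15, 24 and 72 hpa against 0 hpa it called 102 and 42, 409 and 419, 522 and 586, and 1007 and 1341. At 72 hpa against 24 hpa it called 255 and 284. Against the whole tail it called 705 and 612 at 24 hpa and 1522 and 1618 at 72 hpa. The 14 at 72 hpa against the whole tail were 8 higher and 6 lower, beside 8.67% and 9.22% of all genes. No filter on low values gave 1 at 6 hpa, 0 at 24 hpa and 0 at 72 hpa against 0 hpa, 0 at 24 hpa and 2 at 72 hpa against the whole tail, and 0 by the F test. No variance trend gave 0 at 24 hpa and 4 at 72 hpa against 0 hpa, 0 at 24 hpa and 3 at 72 hpa against the whole tail, and 0 by the F test. At 15 hpa against 0 hpa total count scaling gave 2 and a pseudocount of 8 gave 1. Leaving out each replicate gave 0 to 2 at 24 hpa and 0 to 7 at 72 hpa against 0 hpa, 0 to 1 at 24 hpa and 0 to 8 at 72 hpa against the whole tail, and 0 to 3 by the F test. For the fits without a filter, without a variance trend or without a replicate, the share of all genes called was not counted. The same holds for the pseudocount of 8 at 15 hpa. Those counts of members and pathway genes therefore cannot be set against a share of all genes. The causes were not tested.

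The replicate number as a block changed no call among the 35 gene results. With the block, 1 member was called at 24 and 72 hpa against 0 hpa, at 24 and 72 hpa against the whole tail and by the F test, and 0 in the other comparisons. Among pathway genes, 4 were called at 24 hpa and 8 at 72 hpa against 0 hpa, 10 at 72 hpa against the whole tail and 5 by the F test. The share of all genes called with the block was not counted, so these counts cannot be set against it. Same-numbered libraries did not deviate together in every pair of groups (correlations between -0.135 and 0.271), so the numbers were not taken to pair the samples.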

Other observations

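Rows near the members were looked at after their values were seen. The row SMAD7-LIKE, which is not SMAD7 by the symbol rule, stood at 996 and 1157 normalised reads in the whole tail and 1136 and 1266 at 0 hpa, then 979 and 1455 in the 6 and 15 hpa libraries, 1369 and 1589 in the 24 hpa pair, and 1579 and 1599 in the 72 hpa pair. Every library from 15 hpa on was above the 5 earlier ones.

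FSTL3, which encodes a follistatin-like protein that binds activin in mammals, stood at 845 and 1107 normalised reads in the whole tail and 517 and 691 at 0 hpa, then 1131 and 1614 in the 6 and 15 hpa libraries, 1404 and 1638 in the 24 hpa pair, and 1310 and 1065 in the 72 hpa pair. Its log2 fold change at 24 hpa against 0 hpa was 1.34 and missed the threshold (limma adjusted p = 0.0579), while DESeq2 called FSTL3 at 15, 24 and 72 hpa against 0 hpa. Every library from 6 hpa on was above both 0 hpa libraries. FST did not share this pattern: its 24 and 72 hpa values ran from 168 to 642. The authors placed FSTL3 in the same cluster as INHBA, with the flag of change.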
